A study of Aspergillus nidulans with 2 samples.

Results

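In Aspergillus nidulans, 6 nuclear genes that carry the symbols of mitochondrial proteins were followed in mycelium exposed to menadione: cox5b, nde1 and atp4 as genes of respiration and ATP synthesis, and sam50, tim13 and tim21 as genes of protein import. Members were all probes that the array annotation assigns to these 6 symbols, which gave 8 of the array's 3533 probes, or 6 of 2064 named genes. Of the 8 probes, 7 had a value on both arrays and 1, that of atp4, on a single array. The symbol nde1 does not settle the role of its gene, as set out below. The share of probes that passed and the difference between respiration and import genes are therefore also given without it. Other results of the respiration genes as a group include it.

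Mycelium of strain FGSC 26 spent 18 h at 37 °C in minimal-nitrate medium with 0.5% yeast extract and moved to fresh minimal-nitrate medium. It then stayed there for 6 h with 0.8 mM menadione, given as its sodium bisulfite compound, or with no addition. Per the labels, strain, medium and time were the same in both cultures, and menadione was the difference between them. RNA of both was hybridised together to 2 two-colour cDNA arrays, with the dyes exchanged: menadione RNA carried Cy5 on the array called flip and Cy3 on that called flop.

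Mitochondria make most of their ATP by passing electrons from NADH and succinate along a chain of complexes in the inner membrane to oxygen, and by letting the protons pumped on the way return through ATP synthase. Nearly all mitochondrial proteins, the respiratory subunits among them, are encoded in the nucleus and enter through translocases of the outer (TOM, SAM) and inner (TIM) membranes. Menadione is a quinone that takes up electrons in the cell and hands them to oxygen, which forms superoxide.

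A value is a log2 ratio, read as menadione over untreated: 1 is a 2-fold higher and -1 a 2-fold lower signal with menadione. Neither the direction nor the base of the logarithm is stated in the sources used here. The direction was read from menadione being the first channel of both samples. If it is the other way round on both arrays, each increase here is a decrease. If it is so on the flop array alone, the means become 0.15 for cox5b and -0.02 for nde1. The flip array held 3049 values and the flop array 2267, and 2265 probes had both. Over these 2265 probes the columns correlated with a Pearson r of 0.844 across probes, which are not independent replicates, and the median SD between the arrays was 0.198. Nothing in the labels tells whether separate cultures were used for each array, so a p-value here covers the spread between 2 hybridisations, which may be only technical. Precision is limited by this number of arrays. A change in the share of cells that make a transcript and a change in its amount per cell cannot be told apart in RNA of whole mycelium.

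Under this reading, the cox5b probe had the highest ratio among probes of the 6 genes, 3.14-fold above untreated with menadione. That of nde1 was 2.35-fold above, and each of these genes had a single probe. The import genes lay closer to no change, with gene means between -0.005 and 0.64 on the log2 scale. Means of their single probes ran from -0.60 to 0.96, and the -0.005 of tim21 averages probes of opposite sign. Tested against a ratio of 1 by limma with Benjamini-Hochberg adjustment over all 2265 probes, 2 of the 7 probes passed an adjusted p of 0.05, those of cox5b and nde1, and both rose. In the same fit 24.6% of all probes passed, 12.2% of all upward, so 2 of 7 (28.6%) is close to the share of the whole array. Without nde1 it was 1 of 6 (16.7%). All 7 probes had the same sign on both arrays, against 82.2% of all probes, and 6 of the 7 were positive on both, against 42.8%. The same 2 probes were at least 2-fold higher on both arrays, which was so for 8.83% of all probes. Were the values natural logarithms, cox5b would be 5.21-fold and nde1 3.42-fold higher, and 3 of the 7 probes, sam50 probe 3028 as well, would be at least 2-fold higher on both arrays, against 14.6% of all probes. The median of the 7 probes was 0.59, and that of all 2265 probes 0.035.

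**Figure D1:**
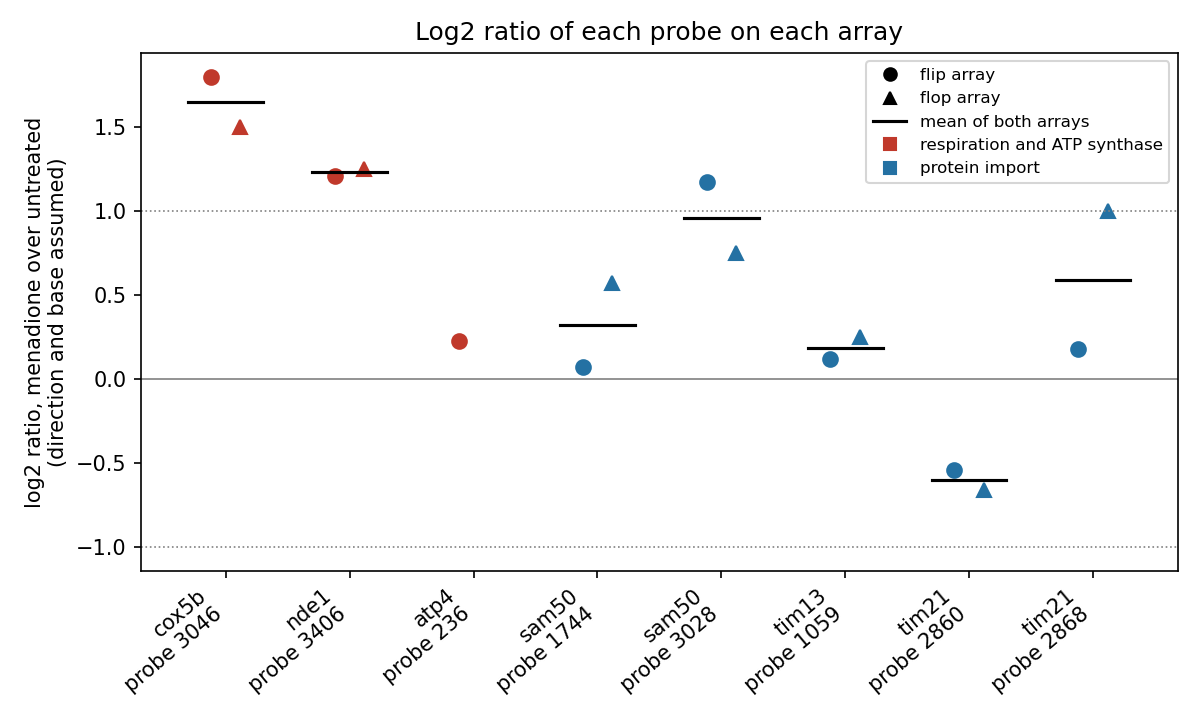
Log2 ratio of each of the 8 probes on the flip array (circles) and the flop array (triangles), with the mean of both as a bar; dotted lines mark a 2-fold difference. The probes of cox5b and nde1 lie above the upper dotted line on both arrays, and the atp4 probe has a value of 0.23 on the flip array alone.

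The gene cox5b encodes a nuclear subunit of cytochrome c oxidase, the last complex of the chain, which hands electrons to oxygen; in budding yeast COX5B is the form of subunit V made at low oxygen. Its single probe gave a log2 ratio of 1.8 on the flip array and a lower one, 1.5, on the flop array. Both values lay above a 2-fold difference, and they differed by 0.30. The mean was 1.65 ± 0.21 (SD, n = 2), with a 95% interval of 1.14 to 2.16 and an adjusted p of 0.0351 by limma. This probe was the 95th highest of 2265 by mean, above 95.8% of them. It ranked 83rd of 3049 on the flip array and 178th of 2267 on flop. The SD between its arrays was typical of the array, since 51.8% of probes had a smaller one. The adjusted p of 0.0351 was the lowest in the fit and was shared by 243 probes, so it does not order cox5b among them.

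The single probe of nde1 gave 1.21 on flip and 1.25 on flop. The values differed by 0.04, and only 7.68% of probes had a smaller SD between arrays. The mean was 1.23 ± 0.028 (SD, n = 2), with a 95% interval of 0.80 to 1.66 and an adjusted p of 0.0351 by limma. By mean this probe ranked 195th of 2265. The intervals of cox5b and nde1 overlap, and the difference between the genes was not tested.

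The name nde1 stands for different proteins in different organisms. In budding yeast NDE1 encodes the external NADH dehydrogenase, which feeds electrons from cytosolic NADH into the chain. In mammals NDE1 encodes a homologue of NudE, a protein first found in A. nidulans as part of the dynein machinery that moves nuclei along the hypha. The tables used here give no description of the gene, locus ANIA_06125. Among their symbols are nudA, nudC, nudF and nudG, and nudE is not among them. On the array, probe 3406 of nde1 is numbered directly after probe 3405 of nudC and directly before probes 3407 of nudF and 3408 of nudG, and the probes with a symbol from nsdD (3404) to rad18 (3410), nde1 aside, run in alphabetical order. Its place in the respiratory chain is therefore not established. The other 5 genes were placed from their symbols too, so the roles given here are those of the proteins that usually carry these names.

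The nud genes, picked for this comparison after their values had been seen, did not share the ratio of nde1. The gene nudF, the LIS1 homologue that regulates dynein, was at -0.45 on flip and -0.62 on flop, a mean of -0.54 ± 0.12 (SD, n = 2; limma adjusted p = 0.0881). Of the other 3 only flip values were present: -1.24 for nudA, the dynein heavy chain, 0.52 for nudC and 0.04 for nudG, a dynein light chain. All 4 lay below the 1.21 of nde1 on that array, as did 92.0% of all flip values. The values of nudA and nudF were on the other side of 0. The nud genes also differed among themselves, and 3 of them had a single value. This comparison does not bear on what nde1 encodes, which was not tested.

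The gene atp4 encodes, in budding yeast, subunit b of the stalk that holds the catalytic head of ATP synthase in place. Its single probe had a log2 ratio of 0.23 on the flip array and an empty cell on the flop array. It stood above 62.8% of the 3049 flip values and ranked 1116th, against 83rd for cox5b and 240th for nde1 on the same array. With 1 value it has no SD and no test among the 2265 probes. When probes with a single value were let into the limma fit, where the spread of atp4 is assumed to be that of other probes, its 95% interval ran from -0.79 to 1.25 (adjusted p = 0.531). That interval includes no change and also the log2 ratio of nde1, and it ends below the 1.65 of cox5b. It overlaps the interval of cox5b, which starts at 1.14, but overlap of intervals from different fits is not a test. Whether atp4 differs from either gene was not tested.

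Sam50 is the channel of the SAM complex, which inserts barrel-shaped proteins such as the import pore Tom40 into the outer membrane. Probe 3028 gave 1.17 on flip and 0.75 on flop, a mean of 0.96 ± 0.30 (SD, n = 2). Probe 1744 gave 0.07 on flip and 0.57 on flop, a mean of 0.32 ± 0.35. All 4 values were positive, and the probes did not overlap: both values of probe 3028 were above both of probe 1744. Neither passed by limma, with an adjusted p of 0.0524 for probe 3028, just outside the threshold, and 0.292 for probe 1744. Their 95% intervals were 0.38 to 1.54 and -0.31 to 0.95. The order of the arrays was opposite in the probes, and their average per array was 0.62 on the flip and 0.66 on the flop array, which gave the gene 0.64 ± 0.028 (adjusted p = 0.0613 in the limma fit of 1455 gene means, of which 19% passed).

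Tim13 is a small chaperone of the space between the membranes; in budding yeast it works with Tim8 and escorts inner membrane proteins from TOM to the TIM22 translocase. Its probe gave 0.12 on flip and 0.25 on flop, both close to 0. The mean was 0.185 ± 0.092 (SD, n = 2) with a 95% interval of -0.26 to 0.63 (limma adjusted p = 0.368). The upper end of the interval lies below a 2-fold difference.

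Tim21 belongs to the TIM23 translocase of the inner membrane, and in budding yeast it also binds the outer TOM complex and respiratory complexes. Its probes went in opposite directions. Probe 2860 was at -0.54 on flip and -0.66 on flop, a mean of -0.60 ± 0.085 (SD, n = 2), and it was the only member probe below 0. Probe 2868 was at 0.18 on flip and 1.00 on flop, a mean of 0.59 ± 0.58. The SD of probe 2868 was larger than that of 86.7% of probes. Neither passed by limma (adjusted p = 0.0704 for probe 2860 and 0.198 for probe 2868), and the gene mean was -0.005 ± 0.25 with a 95% interval of -0.54 to 0.53. No direction can be given for tim21.

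**Figure D2:**
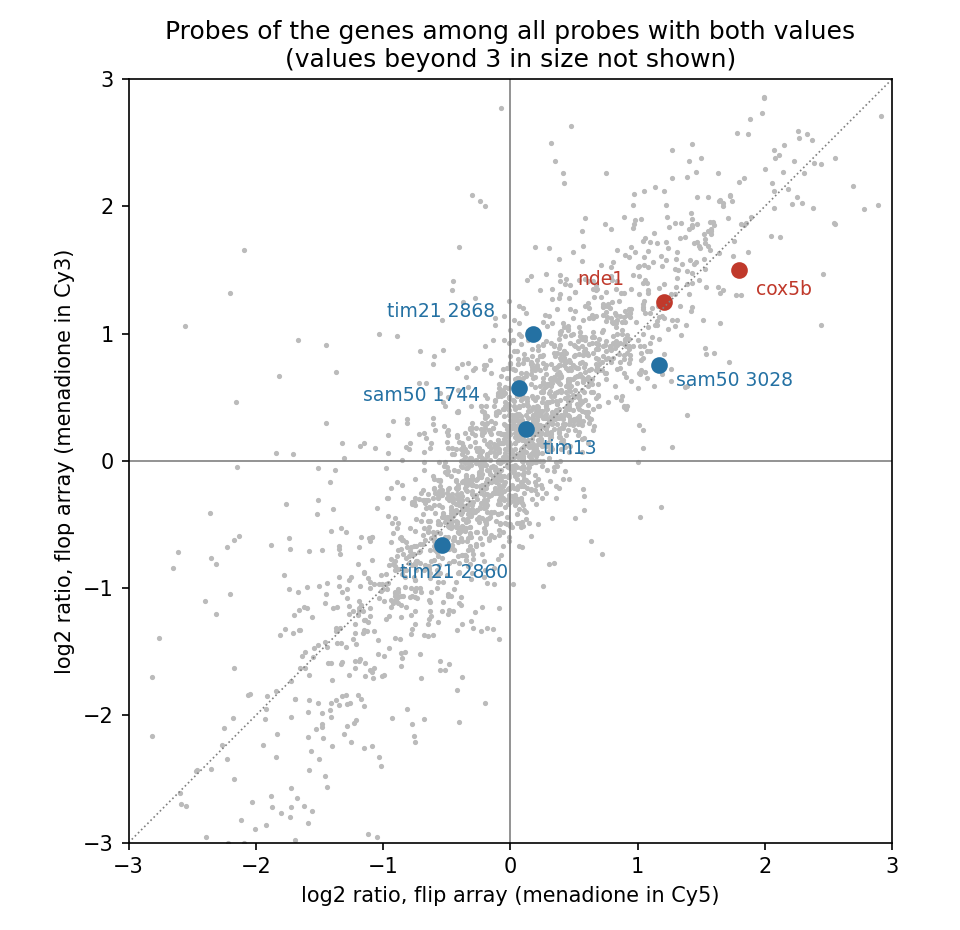
Log2 ratio on the flip array (horizontal) against the flop array (vertical) for the 7 member probes with both values. Probes of cox5b and nde1 are red, those of import genes blue and other probes with both values grey. Beyond the axes lie 66 probes. The nde1 probe sits next to the dotted line of equal values, cox5b lies to the right of it, and the 2 probes of tim21 are on opposite sides of 0.

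Disagreement between probes of 1 gene was common on this array. Over 388 pairs of probes assigned to the same gene, the median difference between their 2-array means was 0.80, and 47.7% of pairs had means of opposite sign. The sam50 pair differed by 0.64, more than 43.0% of the pairs. The tim21 pair differed by 1.19, more than 67.5% of them. The genes cox5b, nde1, atp4 and tim13 each had 1 probe, so their values had no such check. With 47.7% of pairs opposite in sign, another probe of these genes cannot be assumed to share the direction.

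The respiration genes were then set against the import genes on each array, as a description over genes, which are not replicates. For cox5b and nde1 together the mean ratio was 1.51 on flip and 1.38 on flop. The mean of sam50, tim13 and tim21, with probes of a gene averaged, was 0.19 on flip and 0.36 on flop. On both arrays cox5b and nde1 were each above all 3 import gene values. By mean, the cox5b probe was also above 95.8% of all 2265 probes and the nde1 probe above 91.3%. Among single probes on the flip array, sam50 probe 3028 at 1.17 was just below the 1.21 of nde1. The mean of cox5b and nde1 exceeded the import mean by 1.32 on the flip and 1.02 on the flop array, or 1.17 ± 0.21 (SD, n = 2). As the role of nde1 is not established, the difference was also taken with cox5b alone. It then rested on a single respiration probe and was 1.61 on the flip and 1.14 on the flop array, a mean of 1.38 ± 0.33.

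On the flip array the difference moved more with atp4 than with nde1. There, the only array with a value for it, adding atp4 to cox5b and nde1 lowered the respiration mean to 1.08 and the difference to 0.89. The value of atp4, 0.23, was below the flip average of sam50, 0.62, and above those of tim13 and tim21. The order cox5b, nde1, sam50, atp4, tim13, tim21 on the flip array thus does not separate the 2 groups. Among the import genes, 0 of 5 probes passed by limma at 0.05 adjusted p, against 24.6% of all 2265 probes. At an unadjusted p under 0.05 by limma there were 2 of the 5 (sam50 probe 3028 at 0.0136 and tim21 probe 2860 at 0.0232). The same was so for 1035 of all 2265 probes. Whether the import genes differ from the respiration genes was not tested.

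**Figure D3:**
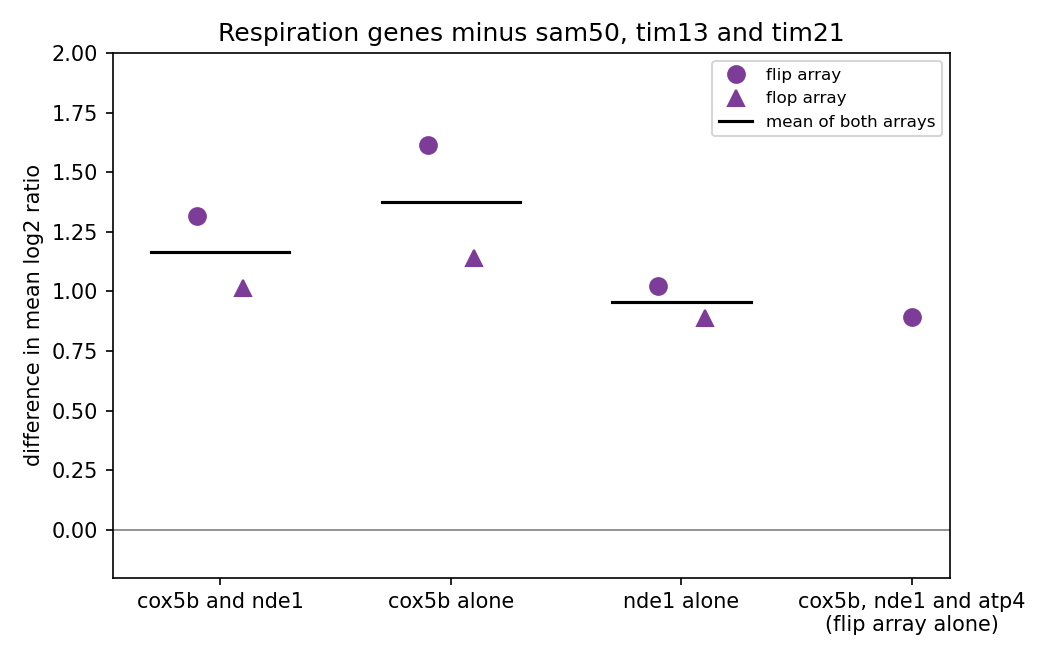
Mean log2 ratio of the respiration genes named under each position minus that of sam50, tim13 and tim21, on the flip array (circles) and the flop array (triangles), with the mean of both as a bar. The difference is positive at each position, is highest with cox5b alone at 1.38 and is 0.89 on the flip array once atp4 is included.

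Other mitochondrial genes could be found by symbol only. A list of symbols of respiration, ATP synthase, protein import and the upkeep of mitochondrial membranes, which is not a full list of mitochondrial genes, matched 19 genes of the RefSeq table, and the array annotation names 9 of them, the 6 members and 3 more. Of these 3, 1 had values on both arrays: mdm12, part of the tether between mitochondria and endoplasmic reticulum. Of the 2 probes of mdm12, 1 rose: probe 722 was at 0.95 on the flip and 1.35 on the flop array, a mean of 1.15 ± 0.28 (SD, n = 2; limma adjusted p = 0.0425). Probe 724 was at -0.09 and 0.14, a mean of 0.025 ± 0.16 (adjusted p = 0.907), so the gene has no settled value. The gene tim9, another small Tim chaperone, was at -0.34 on the flip array alone, and tim44, which anchors the import motor, was empty on both arrays. The remaining symbols, such as tom40, tom70, cox10 and sdh2, are not named by the array annotation and so have no values here. Genes known only by a locus tag were not searched.

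**Figure D4:**
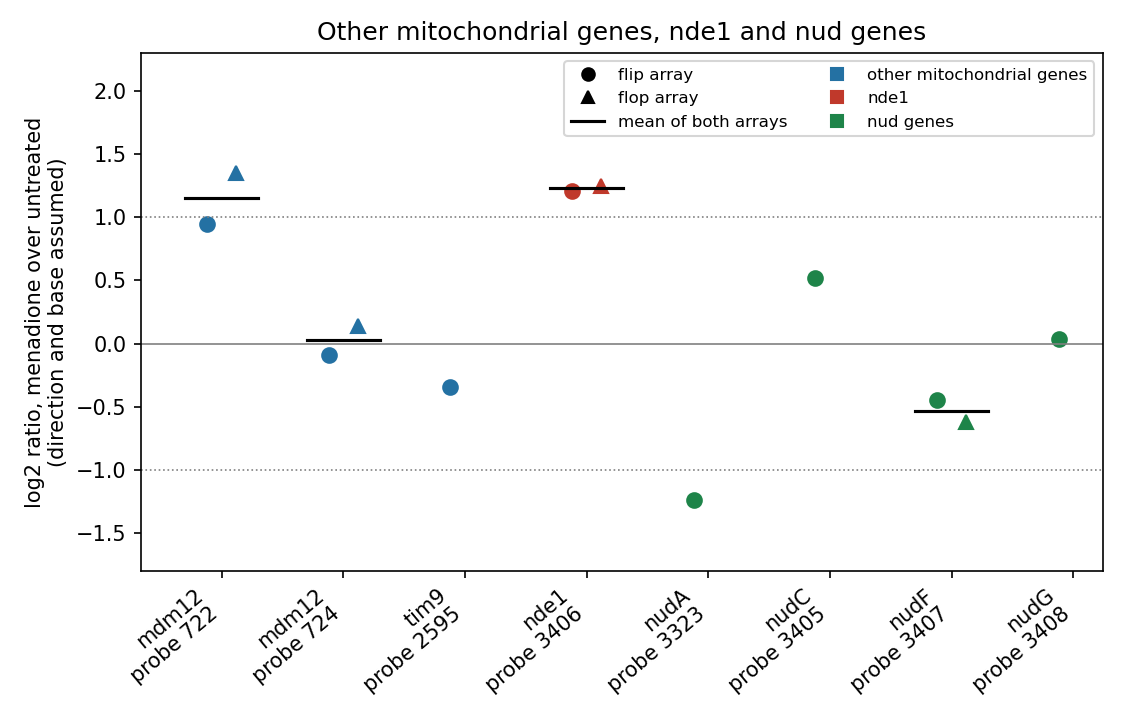
Log2 ratio of the other mitochondrial genes found by symbol (blue), of nde1 (red) and of the nud genes (green) on the flip array (circles) and the flop array (triangles), with the mean of both as a bar and dotted lines at a 2-fold difference. On the flip array nde1 is above all 4 nud genes, and above 92.0% of all values there. Of the blue probes mdm12 probe 722 alone has a mean above the upper dotted line.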

How the data were processed

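Ratios came from GenePix Pro 3.0 after scanning on a GenePix 4000B instrument and were normalized by the authors with a blockwise LOESS in SAS version 8, per the labels and design text. The deposited values were used as log2 ratios, as given, with no further scaling. Clones were spotted in duplicate; the sources used here do not give how spots were combined, the background correction or the rule behind empty cells. Intensities were not used here, so signal over background is unknown.

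Probe names came from the platform annotation and were matched by Entrez ID to RefSeq (assembly ASM1142v1). Its coordinates served only to find the adjacent genes, and its sequences were not used here. Log2 ratios of all 2265 probes with both values entered 1 limma fit (version 3.58.1, R 4.3.3; lmFit and moderated eBayes) of a mean of 0, and p-values adjusted by Benjamini-Hochberg were called at 0.05; intervals are 95% moderated intervals. The named genes were all member probes, the measured genes of the symbol list, the nearest gene by ratio and the adjacent genes. Members and lists were chosen with earlier results of these data known. Alternatives were centring, scaling, moderation, empty cells, probe averaging, log base, the sign of the flop array and single arrays.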

Additional observations from a re-analysis of the deposited data

How the results depend on the processing

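Of the 2265 probes, 557 passed as reported, 878 with the arrays scaled to a common SD, 305 with single values let in, 277 genes with probes averaged and 951 at an adjusted p under 0.10. By limma 0 passed at 0.01 (1035 at an unadjusted p under 0.05) and 0 with the flop sign turned (2 unadjusted); without moderation 0 passed (390 unadjusted). Probes at least 2-fold on both arrays numbered 412, 785 at 1.5-fold, 157 at 3-fold, 663 as natural logarithms, 4 with the flop sign turned and 525 to 671 on single arrays. Without moderation cox5b (1.65, adjusted p = 0.295) and nde1 (1.23, adjusted p = 0.284) no longer passed; both passed under the alternatives of centring, scaling, robust moderation, single values, gene averaging and natural logarithms. Scaling the arrays brought sam50 probe 3028 (0.99, adjusted p = 0.0258) and tim21 probe 2860 (-0.60, adjusted p = 0.0450) past the threshold by limma. With the flop sign turned no member passed and the values were 0.15 for cox5b, -0.02 for nde1, -0.25 and 0.21 for sam50 probes 1744 and 3028, -0.065 for tim13, and 0.06 and -0.41 for tim21 probes 2860 and 2868. Averaging took tim21 probe 2868 to -0.005. The respiration minus import difference of 1.17 and its alternatives here include nde1. It was 0.89 with atp4 on the flip array, 0.15 with the flop sign turned and 1.02 to 1.32 on single arrays. With the higher probe of sam50 and tim21 it was 0.86 and with the lower 1.47, both added after the data were seen. The cause of these shifts was not tested. Each ratio already sets menadione against untreated RNA on the same array, and both arrays form 1 group, so no further pairing was made. The unknown signal over background limits every ratio.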

Other observations

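Genes next to the members in the RefSeq order could be compared in few cases. Of 12 adjacent genes 4 are on the array, and 2 of their probes had both values. The gene after tim13 is pkaC, the catalytic subunit of protein kinase A, with probe 2516 at -2.23 on the flip and -2.34 on the flop array, a mean of -2.29 ± 0.078 (SD, n = 2; limma adjusted p = 0.0351), beside 0.12 and 0.25 for tim13. Another pkaC probe was at -0.52 on the flip array alone. The gene before cox5b, ANIA_04526, was at 0.19 and 0.05, a mean of 0.12 (adjusted p = 0.539), beside 1.8 and 1.5 for cox5b. The gene before nde1, ANIA_06126, was at -0.97 on the flip array alone, on the other side of 0 from nde1. The gene after tim21, ANIA_06033, was at -0.05 on the flip array alone. The tim21 average of -0.18 on that array comes from probes at -0.54 and 0.18.

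Among 208 genes with a symbol outside the members, the one closest to cox5b over the 2 arrays was gpdA, glyceraldehyde-3-phosphate dehydrogenase, at 1.77 and 1.30. The closest to sam50 was atfA, a stress-related bZIP transcription factor, at 0.61 and 0.66, a Euclidean distance of 0.010. The closest to nde1 was ccg9 at the same distance, but the ccg9 value averages probes at 2.41 and 0.065. For tim13 it was amcA, at 0.13 and 0.26, and for tim21 kat1, whose probes were at 0.17 and -0.04. Closeness over 2 values is a description only.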
